A study of Mus musculus with 6 samples.

Results

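Rcan1, Cdkn1a, Irs2, Sik1, Mt1, Mt2, Fkbp5 and Tsc22d3 are 8 genes that respond to calcineurin, to cyclic AMP and CREB, or to glucocorticoids and other stress signals. They were chosen by their measured log2 values on these same 6 arrays, as genes that looked high in control hearts 3 months after infarction. For that reason their values are given as a description, with no test. All 8 were found among the 19505 gene symbols of the array, each with 1 of the 22206 array features.

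The arrays were mouse Clariom S arrays, which give 1 signal per gene and do not separate transcript forms. They measured whole-heart RNA from 6 mice labelled male, 1 array per heart, in 3 groups of 2 hearts. All mice had surgery at 8 weeks of age, in which the left coronary artery was tied to cause a myocardial infarction, and all carried Tcf21iCre and a Tomato reporter. Ctrl mice carried only these alleles and were sampled at 2 months (titled 8W-Ctrl) or at 3 months (12W-Ctrl). TTg mice, all taken at 3 months (12W-TTg), had MGTH2A in addition, which encodes the reprogramming factors Mef2c, Gata4, Tbx5 and Hand2. Tcf21 is a gene of cardiac fibroblasts and epicardial cells, so the Cre is meant to act in those cells while the RNA comes from the whole heart. Mice with an ejection fraction above 45% at 2 days were left out by the submitters, and the labels give no time of day of sampling. There was no uninjured group.

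Calcineurin is a phosphatase switched on by calcium and calmodulin. It removes phosphate from NFAT factors, which then enter the nucleus, and in cardiomyocytes this pathway drives hypertrophic growth. Cyclic AMP acts through protein kinase A on CREB and its CRTC coactivators, and salt-inducible kinases hold CRTC factors in the cytoplasm. Glucocorticoids bind the receptor encoded by Nr3c1, which moves from its chaperone complex to DNA, and their level in blood follows the time of day and acute stress.

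RefSeq promoter windows (GRCm38.p6, 250 bases before to 50 after a start, 32851 windows in all) were found for 7 of the 8 genes, all but Sik1. Those of Rcan1, Mt2 and Mt1 are shown because they hold the known kinds of site for calcineurin, cyclic AMP or metal signals. Only the 250 bases before the start are printed. Rcan1 has 2 annotated starts, and the shorter form from the downstream start is the one known to be induced by calcineurin. In the Rcan1 sequence the capitals mark the NFAT core GGAAA, searched on both strands, and the full cyclic AMP response element TGACGTCA.

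Rcan1, downstream start, chr16:92400079-92400328, minus strand: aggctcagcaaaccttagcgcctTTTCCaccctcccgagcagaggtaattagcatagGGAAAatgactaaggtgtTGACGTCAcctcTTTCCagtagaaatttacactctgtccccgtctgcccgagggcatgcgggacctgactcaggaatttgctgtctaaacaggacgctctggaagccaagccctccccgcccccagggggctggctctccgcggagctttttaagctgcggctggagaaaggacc

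This window held 3 NFAT cores and 1 full cyclic AMP element. The core is common, with at least 1 in 61.3% of all windows and 3 or more in 9.42%, and the full element was in 1.79%. The window at the upstream start of Rcan1 held neither. Among the other members, the Mt1 window also held 3 NFAT cores. The Irs2 window, 1 window of Cdkn1a and 1 of Tsc22d3 held 1 core each. None of the windows of Cdkn1a, Irs2, Mt1, Mt2, Fkbp5 and Tsc22d3 held the full element. The glucocorticoid receptor recognition core AGAACA, searched on both strands and found in 19% of windows, was in 1 of the 3 windows of Tsc22d3 and in none of the other members' windows. The paired form (AGAACA, 3 bases, TGTTCT) was in none of them and in 0.00913% of all windows. A missing match says only that these letters are not in this window.

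In the metallothionein sequences the capitals mark the metal response element cores TGCGCNC and TGCACNC, searched on both strands.

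Mt2, chr8:94172368-94172617, plus strand: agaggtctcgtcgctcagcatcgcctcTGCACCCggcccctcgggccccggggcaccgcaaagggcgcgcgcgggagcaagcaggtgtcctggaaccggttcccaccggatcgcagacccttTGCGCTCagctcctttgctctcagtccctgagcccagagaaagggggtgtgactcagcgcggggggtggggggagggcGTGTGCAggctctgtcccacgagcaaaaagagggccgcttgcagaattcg

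Mt1, chr8:94178839-94179088, plus strand: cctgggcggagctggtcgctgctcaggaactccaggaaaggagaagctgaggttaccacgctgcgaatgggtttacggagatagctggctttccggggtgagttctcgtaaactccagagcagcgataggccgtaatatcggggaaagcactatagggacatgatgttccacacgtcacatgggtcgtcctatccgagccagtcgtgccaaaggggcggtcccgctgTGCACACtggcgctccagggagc

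The whole Mt2 window held 4 cores and that of Mt1 held 3. Of these, 1 core of Mt2 and 2 of Mt1 lie after the start and are not printed. At least 3 cores were found in 1.97% of all windows and at least 4 in 0.517%. The window at the upstream start of Rcan1 held 1 core, and at least 1 was in 25.7% of all windows. Mt2 and Mt1 are neighbours in the annotation.

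Every array held strong heart muscle signal, with a mean between 18.63 and 19.07 over 8 cardiomyocyte markers. Replicates correlated across features at 0.984 to 0.989. Arrays stood apart in some markers of other cells. Control replicate 1 at 2 months had a mean of 6.33 over 4 adipocyte markers and 6.93 over 6 skeletal muscle markers, against 3.35 to 3.85 and 3.97 to 4.25 on the other 5 arrays. Control replicate 2 at 3 months had a mean of 4.48 over 4 atrial myocyte markers, against 10.01 to 13.73 elsewhere. Precision is limited throughout by having 2 arrays a group, p-values measure only the spread between these hearts, and an exact permutation of 2 against 2 cannot give a p below 0.333.

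The label male was not borne out on every array. Eif2s3y and Uty, Y-linked genes that male tissues express widely, were at 10.86 and 10.61 on control replicate 2 at 2 months, and at 2.48 to 2.90 and 2.49 to 2.91 on the other 5 arrays. Kdm5d, also Y-linked, was at 5.89 on that array and at 2.41 to 2.88 on the others. Both groups at 3 months were alike in these genes and the pair at 2 months was not, so comparisons with Ctrl at 2 months hold 1 heart that differs from the other 5 in Y-linked signal. These 3 genes were picked after their values were seen, and the part of this difference in the values of the 8 genes was not tested.

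Without control replicate 2 at 2 months, replicate 1 is the only reference left at that age, and it stood apart in adipocyte and skeletal muscle markers. With replicate 2 left out, the log2 difference between Ctrl at 3 and 2 months was 3.22 for Rcan1, 3.93 for Cdkn1a, 3.40 for Irs2 and 3.13 for Sik1. It was 0.02 for Mt1, −1.22 for Mt2, 2.54 for Fkbp5 and −0.04 for Tsc22d3. Thus Mt2 and Fkbp5 changed most when replicate 2 was left out. Between TTg and Ctrl at 2 months the differences without it were 0.37 for Rcan1, 1.02 for Cdkn1a, 0.46 for Irs2, 0.69 for Sik1, −0.61 for Mt1, −3.71 for Mt2, 0.81 for Fkbp5 and −1.80 for Tsc22d3. Differences between TTg and Ctrl at 3 months do not use it.

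The 8 genes did not all have the same order of arrays. Rcan1, Cdkn1a, Irs2 and Sik1 were high on both control arrays at 3 months, above all 4 arrays of the other groups. Mt1 and Tsc22d3 were above the other 4 arrays on control replicate 1 alone, and Mt2 and Fkbp5 on neither. Over all features, 7.21% had both control arrays at 3 months above the other 4 and 14.8% had replicate 1 alone there. Since the genes were chosen for this contrast, nothing is read from the counts of 4 and 2 of 8. Without control replicate 2 at 2 months the count on both arrays was 5 of 8, with Fkbp5 added, and the share over all features was 9.88%. Control replicate 1 at 3 months had the higher value of its pair for all 8 genes, and over all features for 51.0%.

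**Figure D1:**
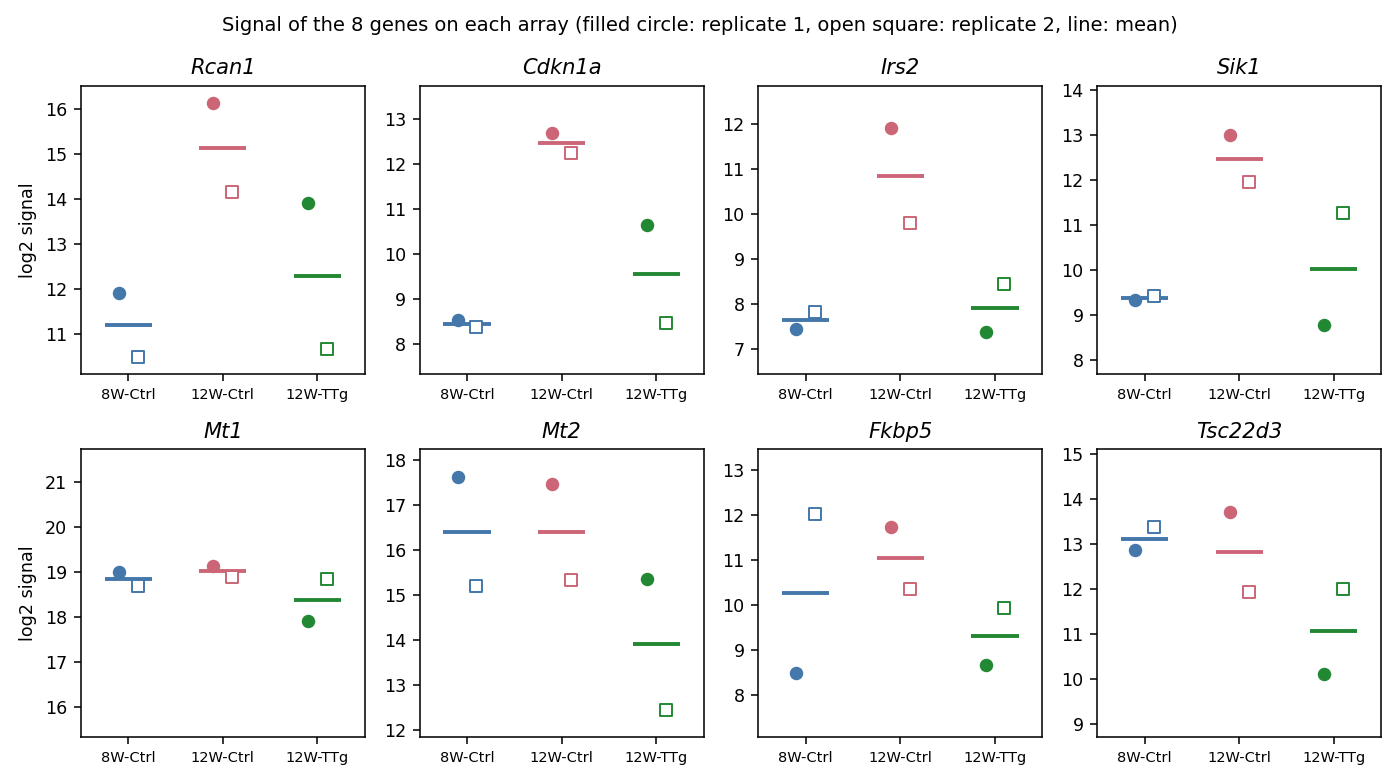
Log2 signal of each of the 8 genes (vertical axis, the same span in every panel) in the 3 groups (horizontal axis), with replicate 1 as a filled circle, replicate 2 as an open square and the group mean as a line. Rcan1, Cdkn1a, Irs2 and Sik1 have both 12W-Ctrl points above all other points, whereas the pairs of Mt2 lie 2.13 to 2.89 apart in every group and Fkbp5 has its highest and its lowest value in the 8W-Ctrl pair.

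Rcan1 encodes regulator of calcineurin 1, which binds and restrains calcineurin and is itself an NFAT target, so it is widely read as a gauge of calcineurin activity. Its log2 signal was 11.92 and 10.49 in Ctrl at 2 months, 16.13 and 14.15 in Ctrl at 3 months, with 13.92 and 10.66 in TTg. The lower control array at 3 months stood only 0.23 above TTg replicate 1, and control replicate 1 stood 2.21 above it. TTg replicate 2 was at the level of the hearts at 2 months. The range over the 6 arrays was 5.64, which is 49.9-fold on the linear scale and the widest of the 8 genes.

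Differences below are log2 differences of group means with the SE from 1 limma fit to all arrays and n = 2 a group, and the SE of a gene is the same in all 3 comparisons. For Rcan1 the difference between Ctrl at 3 and 2 months was 3.94 ± 1.10 (15.3-fold). Between TTg and Ctrl at 3 months it was −2.85 ± 1.10 (7.21-fold lower), with −4.48 without TTg replicate 1 and −1.22 without TTg replicate 2, and −1.86 without control replicate 1. TTg and Ctrl at 2 months differed by 1.08 ± 1.10, and without TTg replicate 1 that difference was −0.55.

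Cdkn1a encodes p21, an inhibitor of cyclin-dependent kinases that p53 and many stress signals induce. Its signal was 8.54 and 8.39 in Ctrl at 2 months, 12.69 and 12.25 in Ctrl at 3 months, with 10.65 and 8.47 in TTg. Both control arrays at 3 months stood at least 1.60 above every other array, the widest gap of the 8 genes, and the pair lay 0.44 apart. The difference between Ctrl at 3 and 2 months was 4.01 ± 0.63 (16.1-fold), and between TTg and Ctrl at 3 months −2.91 ± 0.63 (7.52-fold lower). TTg replicate 1 lay between the control ages and replicate 2 within the range of the hearts at 2 months. Without TTg replicate 2 the latter was −1.82. The difference between TTg and Ctrl at 2 months was 1.10, which became 0.005 without TTg replicate 1 and 2.19 without TTg replicate 2.

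Irs2 encodes insulin receptor substrate 2, an adaptor of insulin signalling that CREB, FOXO and glucocorticoids can induce. Its signal was 7.46 and 7.83 in Ctrl at 2 months, 11.92 and 9.80 in Ctrl at 3 months, with 7.38 and 8.45 in TTg. Both TTg arrays were near the hearts at 2 months, and the lower control array at 3 months stood 1.35 above all of them. Between Ctrl at 3 and 2 months the difference was 3.21 ± 0.67 (9.29-fold), and between TTg and Ctrl at 3 months −2.94 ± 0.67 (7.70-fold lower). These became 2.15 and −1.89 without control replicate 1 at 3 months, and 4.28 and −4.01 without replicate 2.

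Sik1 encodes salt-inducible kinase 1, which CREB induces and which then damps CRTC and CREB activity. Its signal was 9.35 and 9.43 in Ctrl at 2 months, 13.00 and 11.96 in Ctrl at 3 months, with 8.79 and 11.28 in TTg. TTg replicate 2 reached within 0.68 of the lower control array, whereas TTg replicate 1 was the lowest of the 6. The difference between Ctrl at 3 and 2 months was 3.09 ± 0.75 (8.51-fold), and between TTg and Ctrl at 3 months −2.45 ± 0.75 (5.45-fold lower). The latter was −1.20 without TTg replicate 1 and −3.69 without TTg replicate 2.

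Rcan1 and Cdkn1a were higher on TTg replicate 1 than on replicate 2, by 3.26 and 2.18. Irs2 and Sik1 ran the other way, with differences of −1.07 and −2.49 between TTg replicates 1 and 2. The 4 genes that were high on both control arrays therefore split by which transgenic heart was the higher. Over the 6 arrays Pearson's r was 0.95 between Rcan1 and Cdkn1a and 0.94 between Irs2 and Sik1, and it was 0.54 between Rcan1 and Sik1. These r describe 6 arrays, of which control replicate 1 at 3 months was the highest for all 4 genes.

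Mt1 and Mt2 encode metallothioneins, small cysteine-rich proteins that bind zinc and copper and that metals, glucocorticoids and inflammatory signals induce. Mt1 was at 18.99 and 18.69 in Ctrl at 2 months, 19.13 and 18.89 in Ctrl at 3 months, with 17.92 and 18.84 in TTg. The highest value on any array was 19.93, so Mt1 lay near the upper end of the array's scale, and its differences may be understated. Its differences were 0.17 ± 0.34 between Ctrl at 3 and 2 months and −0.63 ± 0.34 between TTg and Ctrl at 3 months. The latter was −0.17 without TTg replicate 1 and −1.09 without TTg replicate 2.

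Mt2 was at 17.61 and 15.19 in Ctrl at 2 months, 17.46 and 15.33 in Ctrl at 3 months, with 15.34 and 12.45 in TTg. Replicate 1 was the higher of each pair, by 2.42, 2.13 and 2.89. The 2 control ages had nearly the same pair of values, with a difference of means of −0.005 ± 1.17. TTg differed from Ctrl at 3 months by −2.50 ± 1.17 (5.66-fold lower), and the groups touched, since TTg replicate 1 stood just above control replicate 2. With 1 array of these groups left out, that difference lay between −3.94 (without TTg replicate 1) and −1.06 (without TTg replicate 2). Thus Mt1 and Mt2 spanned 1.21 and 5.16 over the 6 arrays, and their r was 0.27.

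Mt2, like the mean of fibroblast, macrophage and endothelial markers, was higher on replicate 1 of each pair and lowest on TTg replicate 2. The full order of arrays differed between them. None of the other marker lists had the higher mean on replicate 1 of every pair. The cardiomyocyte mean was lower there each time, at 18.63 and 18.86 in Ctrl at 2 months, 18.66 and 18.96 in Ctrl at 3 months, with 18.98 and 19.07 in TTg. Rcan1 and Cdkn1a were also higher on replicate 1 of each pair, but were lowest on control replicate 2 at 2 months. Over 7 of 8 endothelial markers the mean was 11.66 and 11.13 in Ctrl at 2 months, 11.55 and 11.15 in Ctrl at 3 months, with 11.67 and 11.08 in TTg. The mean over 7 measured fibroblast markers of 8 was 13.00 and 11.19 in Ctrl at 2 months, 12.75 and 11.81 in Ctrl at 3 months, with 11.46 and 10.37 in TTg. Over 7 of 8 macrophage markers it was 10.29 and 9.45, then 10.62 and 9.05, then 8.72 and 7.99. None of the 14 fibroblast and macrophage markers was at the floor of the scale, with lowest values of 4.98 and 5.11. Their part in the values of Mt2 was not tested, and in whole-heart RNA fewer cells of a type and less RNA per cell cannot be told apart.

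Fkbp5 encodes a co-chaperone that lowers the affinity of the glucocorticoid receptor for its hormone and is a standard target of the receptor. Its signal was 8.50 and 12.03 in Ctrl at 2 months, 11.73 and 10.35 in Ctrl at 3 months, with 8.68 and 9.94 in TTg. Both the highest and the lowest of the 6 values came from Ctrl at 2 months, so its mean describes neither heart. TTg differed from Ctrl at 3 months by −1.73 ± 1.08 (3.32-fold lower) with no overlap, and by −1.10 without TTg replicate 1 and −1.04 without control replicate 1. Ctrl at 3 and 2 months differed by 0.78 ± 1.08, which became −0.99 without control replicate 1 at 2 months and 2.54 without replicate 2.

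Tsc22d3 encodes GILZ, a glucocorticoid-induced protein with anti-inflammatory action. Its signal was 12.86 and 13.38 in Ctrl at 2 months, 13.70 and 11.94 in Ctrl at 3 months, with 10.11 and 12.01 in TTg. Here the hearts at 3 months were not above those at 2 months (−0.30 ± 0.73), and without control replicate 2 at 3 months that difference was 0.58. TTg differed from Ctrl at 2 months by −2.06 ± 0.73 (4.17-fold lower), the only member whose values did not overlap in that comparison. The difference was −1.11 without TTg replicate 1 and −3.01 without TTg replicate 2. Against Ctrl at 3 months it differed by −1.76 ± 0.73, and TTg replicate 2 overlapped with the lower control array. That difference was −0.81 without TTg replicate 1 and −0.88 without control replicate 1.

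**Figure D2:**
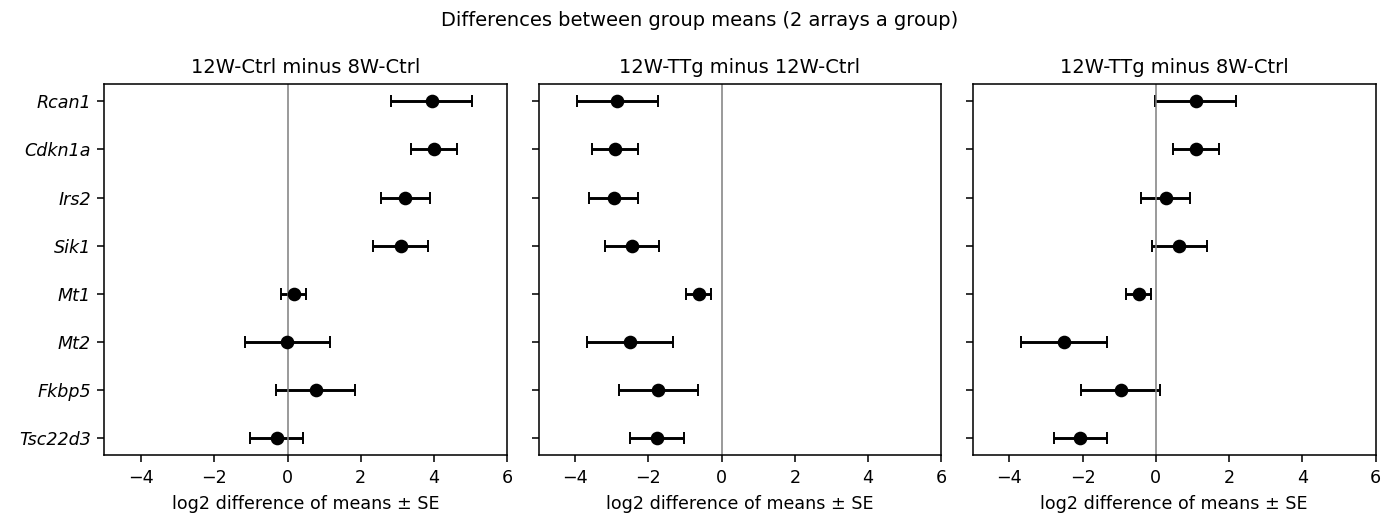
Log2 differences of group means (horizontal axis) with their SE as bars for the 8 genes (vertical axis), in 3 comparisons of groups of 2 arrays. Rcan1, Cdkn1a, Irs2 and Sik1 lie between 3.09 and 4.01 for 12W-Ctrl minus 8W-Ctrl and Mt1, Mt2, Fkbp5 and Tsc22d3 between −0.30 and 0.78, and all 8 lie below 0 for 12W-TTg minus 12W-Ctrl.

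The median of the 8 differences was 1.93 between Ctrl at 3 and 2 months, −2.47 between TTg and Ctrl at 3 months, and −0.095 between TTg and Ctrl at 2 months. Over all features the medians were 0.01, 0.01 and 0.02. Each of the 3 comparisons shares a group with the others, so opposite signs in the first pair, which share the Ctrl arrays at 3 months, are not separate observations. For 12W-Ctrl against 8W-Ctrl, 4 of 8 genes were higher without overlap, against 18.3% of all features higher and 17.4% lower. For 12W-TTg against 12W-Ctrl, 6 of 8 were lower without overlap, against 19.3% lower and 19.1% higher. For 12W-TTg against 8W-Ctrl, 1 of 8 was lower, against 18.9% lower and 21.2% higher. Since the 8 genes were chosen as high in Ctrl at 3 months on these arrays, nothing is read from these counts or from the medians. The median between TTg and Ctrl at 2 months was 0.41 without control replicate 2 at 2 months.

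In limma with Benjamini-Hochberg adjustment over all features, 1 of 22206 features (0.0045%) was called at an adjusted p under 0.05 between TTg and Ctrl at 3 months. Between Ctrl at 3 and 2 months 1 (0.0045%) was called, and between TTg and Ctrl at 2 months 0 (0%). With the replicate number as a block, the counts were 11, 1 and 5 in that order. The 8 genes were fitted with the rest for their SE only. At an unadjusted p under 0.05 in limma, 745 of 22206 features were higher and 913 lower in the first comparison, 868 and 908 in the second, and 955 and 1201 in the last. These are the background for the unadjusted counts of the lists here and below. No gene of the 7 pathway lists was called in any comparison. At an unadjusted p under 0.05 in limma, 2 were higher and 8 lower between TTg and Ctrl at 3 months. There were 13 higher and 6 lower between Ctrl at 3 and 2 months, and 15 and 12 between TTg and Ctrl at 2 months. Counts without control replicate 2 at 2 months are not given here, since replicate 1, with adipocyte and skeletal muscle signal, would be the only reference.

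Calcineurin subunits, NFAT factors and their regulators are described beside Rcan1. The 8 genes were chosen as high in Ctrl at 3 months, so smaller differences in this and the other lists can follow from that choice alone. Nothing is read from them. Of 29 measured genes of 32, none was called in any comparison, and at an unadjusted p under 0.05 there were 0 between TTg and Ctrl at 3 months, 1 higher and 1 lower between Ctrl at 3 and 2 months, and 3 higher and 3 lower between TTg and Ctrl at 2 months. Their differences ran from −0.52 to 0.40 between TTg and Ctrl at 3 months, from −0.71 to 1.06 between Ctrl at 3 and 2 months, and from −1.10 to 1.21 between TTg and Ctrl at 2 months. Ppp3ca, the main catalytic subunit, was at 12.39 and 12.67, 12.27 and 12.15, and 12.22 and 12.27 in the order Ctrl at 2 months, Ctrl at 3 months, TTg. Rcan2, a second calcineurin regulator, ran from 16.90 to 17.47 on all 6 arrays. Among the NFAT factors, Nfatc1 was highest on control replicate 1 at 3 months, at 8.63 against 7.62 to 8.06 on the other 5, and Nfatc3 ran from 10.59 to 11.05.

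Fetal genes that calcineurin signalling is known to raise in cardiomyocytes were also measured. Of 5 such genes, 0 were called. At an unadjusted p under 0.05 in limma 3 were lower between TTg and Ctrl at 3 months, against 913 of 22206 features, and 0 in the other comparisons. Acta1, skeletal actin, was at 17.13 and 15.97 in Ctrl at 2 months, 18.57 and 19.30 in Ctrl at 3 months, with 16.72 and 12.78 in TTg. Nppb, the B-type natriuretic peptide, was at 16.14 and 14.29, then 17.53 and 15.71, then 16.04 and 12.44. Like Rcan1, both were lower on TTg replicate 2 than on TTg replicate 1. Nppa lay between 18.92 and 19.93, at the top of the scale.

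CREB, its coactivators and the kinases around them differed by −0.81 to 0.90 between TTg and Ctrl at 3 months. Their range was −0.58 to 1.22 between Ctrl at 3 and 2 months and −0.535 to 1.68 between TTg and Ctrl at 2 months. Without overlap, 11 were higher (44%) and 0 lower between Ctrl at 3 and 2 months, against 18.3% and 17.4% of all features. Between TTg and Ctrl at 2 months 12 were higher (48%) and 1 lower (4%), against 21.2% and 18.9%. Of 25 measured genes of 30, 0 were called in limma, and at an unadjusted p under 0.05 there were 0 between TTg and Ctrl at 3 months, 1 higher between Ctrl at 3 and 2 months, and 4 higher between TTg and Ctrl at 2 months. Creb1 ran from 7.04 to 7.97, and its lowest array was control replicate 1 at 3 months. The coactivator gene Crtc2 was at 10.04 and 9.79 in Ctrl at 2 months, 10.70 and 10.16 in Ctrl at 3 months, with 9.99 and 9.83 in TTg, with both control arrays at 3 months above the rest. For Crtc3 too both control arrays at 3 months were above the rest, at 7.73 and 7.37, 8.17 and 8.05, and 7.66 and 7.62. Sik2 and Sik3, the sister kinases of Sik1, had differences of 0.005 and 0.15 between TTg and Ctrl at 3 months. The metabolic coactivator Ppargc1a, a CREB target, was at 14.13 and 15.08, 15.88 and 15.77, and 15.14 and 16.53, and so was not lower in TTg as a group.

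Among genes of the glucocorticoid receptor and its cofactors, 13 of 16 were measured and 0 called, with 0, 1 and 1 lower at an unadjusted p under 0.05 for TTg against Ctrl at 3 months, Ctrl at 3 against 2 months, and TTg against Ctrl at 2 months. Nr3c1, the receptor, ran from 7.14 to 7.89 and had a difference of 0.13 between TTg and Ctrl at 3 months. Hsd11b1, which regenerates active hormone inside cells, was at 8.24 and 10.03 in Ctrl at 2 months, 7.86 and 7.13 in Ctrl at 3 months, with 7.27 and 6.50 in TTg. Its difference between TTg and Ctrl at 2 months was −2.25 (adjusted p = 0.351 in limma). Fkbp4, the co-chaperone that favours the receptor, was lowest on control replicate 1 at 3 months, at 11.94 against 12.93 to 13.65 on the other arrays.

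Of 31 measured glucocorticoid target genes of 32, 0 were called. At an unadjusted p under 0.05 in limma, 1 was higher and 5 lower between TTg and Ctrl at 3 months, 4 higher and 1 lower between Ctrl at 3 and 2 months, and 1 higher and 1 lower between TTg and Ctrl at 2 months. Their median difference between TTg and Ctrl at 3 months was −0.30, and 9 were higher and 22 lower. With 1 array of these groups left out the median lay between −0.68 (without control replicate 2) and −0.09 (without TTg replicate 1), and it was −0.20 without control replicate 1 and −0.62 without TTg replicate 2. Between Ctrl at 3 and 2 months the median was 0.39, and it was −0.055 without control replicate 1 at 3 months and 0.02 without control replicate 1 at 2 months. Zbtb16, a strong target of the receptor, was at 11.12 and 13.06 in Ctrl at 2 months, 13.68 and 12.94 in Ctrl at 3 months, with 11.25 and 13.76 in TTg. Like Fkbp5, Zbtb16 was lower on replicate 1 than on replicate 2 both in Ctrl at 2 months and in TTg. Pdk4, a brake on glucose oxidation, was at 10.29 and 12.23, 13.15 and 13.45, and 12.46 and 12.49. Errfi1, a feedback inhibitor of the EGF receptor, was at 9.52 and 9.20, 11.28 and 10.61, and 9.68 and 10.19, with both control arrays at 3 months the highest. Cebpd and Ddit4 were high on 1 array, control replicate 1 at 3 months, at 9.71 and 10.18 against at most 7.98 and 8.61 elsewhere.

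For metals and zinc, 22 of 22 genes were measured and 0 called. At an unadjusted p under 0.05 in limma, 2 were lower between TTg and Ctrl at 3 months, 3 were higher and 1 lower between Ctrl at 3 and 2 months, and 2 were higher and 3 lower between TTg and Ctrl at 2 months. Slc30a1, a zinc exporter that the metal sensor MTF1 induces together with metallothioneins, was at 5.94 and 6.11 in Ctrl at 2 months, 6.86 and 6.57 in Ctrl at 3 months, with 6.12 and 6.43 in TTg, an order of arrays unlike that of Mt2. Mtf1 itself ran from 7.20 to 8.45. Stat3, which carries interleukin 6 signals to metallothionein genes, was at 11.24 and 10.89, 12.55 and 12.54, and 11.51 and 12.33. Hmox1, haem oxygenase, was at 8.92 and 7.89, 8.23 and 7.61, and 6.99 and 6.55, with replicate 1 the higher of each pair, as for Mt2.

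The p53 targets and other inhibitors of cyclin-dependent kinases differed by −0.67 to 1.54 between Ctrl at 3 and 2 months. Between TTg and Ctrl at 3 months they differed by −2.265 to 0.385, with 7 higher and 19 lower. Without overlap, 1 was higher (3.85%) and 9 lower (34.6%) in that comparison, against 19.1% and 19.3% of all features. Of 26 measured genes of 30, 0 were called. At an unadjusted p under 0.05 in limma, 1 was lower between TTg and Ctrl at 3 months, 1 lower between Ctrl at 3 and 2 months, and 4 lower between TTg and Ctrl at 2 months. Mdm2 ran from 12.30 to 12.78, Cdkn1b from 7.03 to 8.41 and Ccng1 from 18.91 to 19.17, the last at the top of the scale. Btg2, an antiproliferative early response gene with the difference of 1.54, was at 8.44 and 7.74, 10.84 and 8.42, and 7.44 and 7.29, with 1 high array. Both control arrays at 3 months were above the rest for 1 of the 26 genes (3.85%), against 7.21% of all features. That count was 5 of 31 glucocorticoid targets (16.1%), 4 of 22 metal and zinc genes (18.2%) and 3 of 25 genes around CREB (12%). It was 1 of 13 for the glucocorticoid receptor list (7.69%), and 0 for the calcineurin and insulin lists. Over all 169 pathway genes it was 14 (8.28%), and for the fetal genes 3 of 5 (60%).

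In insulin signalling, 23 of 24 genes were measured and 0 called, with 1 higher at an unadjusted p under 0.05 in limma between TTg and Ctrl at 3 months, 4 higher and 1 lower between Ctrl at 3 and 2 months, and 5 higher between TTg and Ctrl at 2 months. Irs1, the sister adaptor of Irs2, was at 6.13 and 5.54 in Ctrl at 2 months, 6.65 and 7.21 in Ctrl at 3 months, with 7.17 and 8.05 in TTg. Its order of groups differed from that of Irs2, with a difference of 0.68 between TTg and Ctrl at 3 months. Insr, the insulin receptor, was at 13.03 and 14.15, 14.65 and 14.94, and 14.73 and 15.01.

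**Figure D3:**
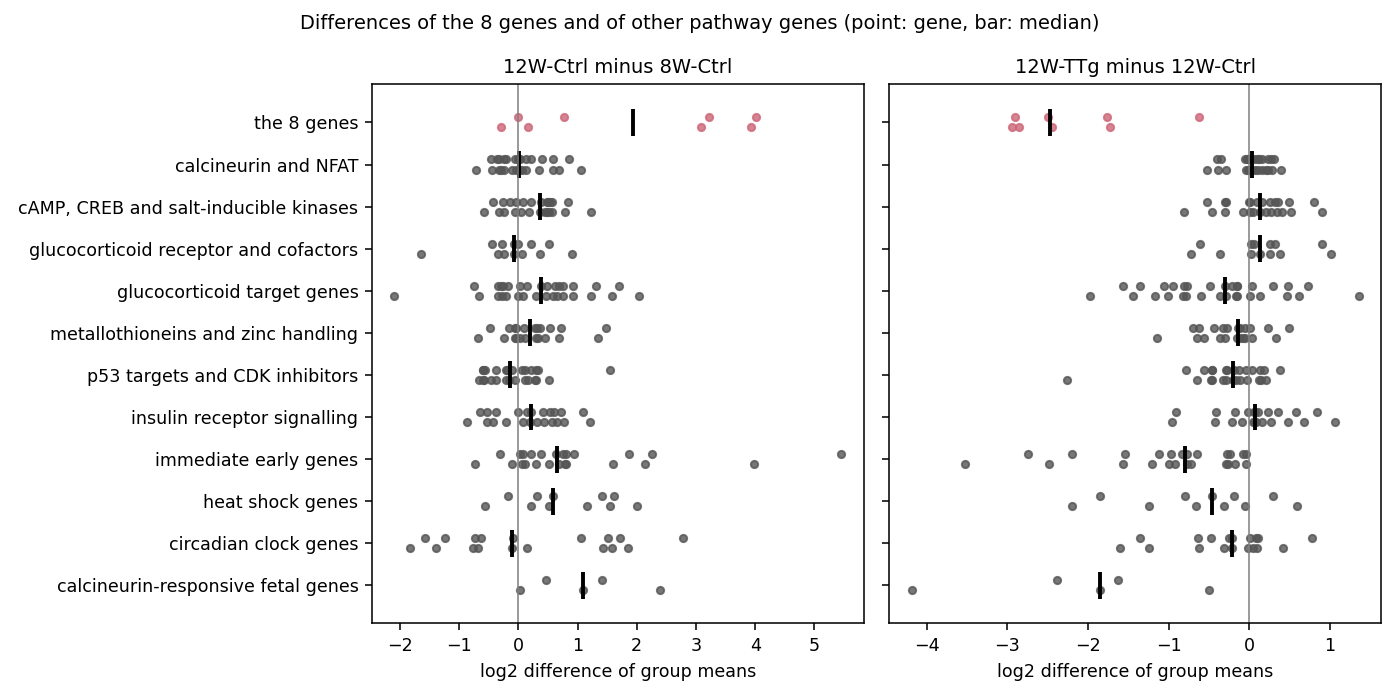
Log2 differences of group means (horizontal axis) for the 8 genes and for the measured genes of 11 lists (rows), with 1 point per gene and a black bar at the median. For 12W-TTg minus 12W-Ctrl the 8 genes have a median of −2.47, the calcineurin and NFAT list one of 0.035 and the calcineurin-responsive fetal genes one of −1.85. The 8 genes were chosen by values on these arrays, so nothing is read from the distance of their median to those of the lists.

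Immediate early genes, heat shock genes and clock genes are known to respond quickly to stress or to follow the time of day, and were set beside the 8 genes. The mean over 24 immediate early genes was 6.72 and 6.39 in Ctrl at 2 months, 8.05 and 7.00 in Ctrl at 3 months, with 6.31 and 6.69 in TTg. Both control arrays at 3 months were above the rest for 8 of the 24, and 7 more were so on replicate 1 alone, where all features gave 7.21% and 14.8%. Without control replicate 2 at 2 months, 10 of the 24 were above the rest on both, and the share over all features was then 9.88%. Nr4a1, an orphan nuclear receptor gene that CREB induces, was at 5.89 and 5.59, 10.47 and 8.96, and 6.91 and 7.56. Fos was at 5.05 on control replicate 1 at 3 months and at 3.17 to 3.55 on the other arrays. Hspa1a, an inducible heat shock protein, was at 9.82 on that array and at 5.34 to 6.64 on the others. The mean over 11 measured heat shock genes of 14 was 10.74 and 10.27 in Ctrl at 2 months, 11.52 and 11.06 in Ctrl at 3 months, with 10.33 and 11.00 in TTg. Both control arrays at 3 months were above the rest for 2 of the 11, and replicate 1 alone for 3. The part of these genes' signals in the values of Rcan1, Cdkn1a, Irs2 and Sik1 was not tested.

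Clock genes separated the TTg hearts from each other. Bmal1 was at 9.74 and Dbp at 12.81 on TTg replicate 1, and at 5.19 and 17.92 on replicate 2. In Ctrl, Bmal1 was at 5.92 and 5.94 at 2 months and at 8.49 and 8.94 at 3 months. Per1, a clock gene that CREB and glucocorticoids also induce, was at 7.55 and 8.61 in Ctrl at 2 months, 10.19 and 9.01 in Ctrl at 3 months, with 6.05 and 10.45 in TTg. TTg replicate 1, with the lowest Per1 and Dbp, also had the lowest Irs2, Sik1, Mt1 and Tsc22d3 of the 6 arrays. Whether the clock has a part in these values was not tested, and the control ages differed in Bmal1 by 2.79.

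**Figure D4:**
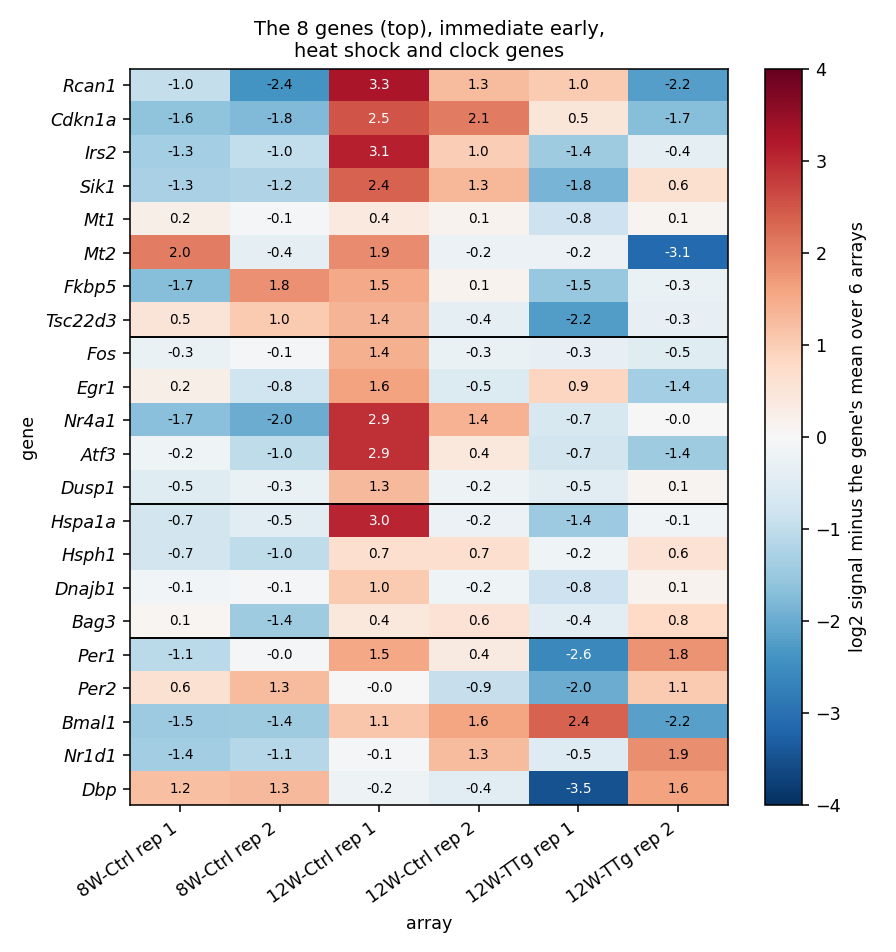
Log2 signal minus each gene's mean over the 6 arrays, as colour and number, for the 8 genes (top block) and for named immediate early, heat shock and clock genes (blocks below, rows), on each array (columns). Control replicate 1 at 3 months is high for Hspa1a (9.82) and Fos (5.05) as well as for Rcan1 (16.13), and TTg replicate 1 is low for Dbp (12.81), Per1 (6.05) and Tsc22d3 (10.11).

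For each gene the 3 other genes with the most similar values over the 6 arrays were found among 6063 features with a mean at or above 3.65 and a range of at least 1. With so many features and 6 arrays, r near 1 is easily met, and these genes are named as a description. Nearest to Rcan1 were Bcat1 (r = 0.993), Pdgfrb (0.984) and Slc1a2 (0.984), and Pdgfrb ran from 10.01 to 11.10 where Rcan1 spanned 5.64. Nearest to Cdkn1a were Mical2 (0.991), Myot (0.974) and Fgf18 (0.974). Myot, which encodes the Z-disc protein myotilin, was at 12.57 and 12.15 in Ctrl at 2 months, 14.15 and 14.04 in Ctrl at 3 months, with 13.68 and 12.56 in TTg.

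Irs2 was closest to Garre1 (0.994), Thbs1 (0.993) and Gfpt2 (0.990). Thbs1, thrombospondin 1, had a similar span of values, at 5.95 and 5.79, 10.39 and 8.43, and 5.67 and 6.55. Sik1 was closest to Bhlhe40 (0.989), Nr4a3 (0.985) and Zfp36 (0.979), of which Nr4a3 and Zfp36 are immediate early genes and Bhlhe40 a regulator of the clock. Nr4a3 was at 6.18 and 6.49, 12.66 and 10.92, and 5.55 and 10.97, so that TTg replicate 2 was as high as the lower control array at 3 months.

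For Mt2 the nearest were Grk5 (0.994), Col18a1 (0.994) and Zfp781 (0.993), and for Mt1 Gpr160 (0.980), Csk (0.979) and Inpp5f (0.972). Fkbp5 was nearest to Tmem87a (0.965), Zfp697 (0.964) and Syncrip (0.955), and Tsc22d3 to Marveld1 (0.983), Thbs2 (0.969) and Setdb1 (0.966). No gene stood among the nearest 3 of more than 1 of the 8. Among the 8 themselves, Tsc22d3 was closest to Mt1 (r = 0.84) and Fkbp5 to Tsc22d3 (0.68), and Rcan1 had r of −0.05 with Tsc22d3 and 0.09 with Fkbp5.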

How the data were processed

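Whole-heart RNA (100 ng per array, integrity number over 7.0, per the labels' protocols) was measured on 6 mouse arrays. The deposited values are log2 signals, 1 per array feature, made by the authors. Software was Transcriptome Analysis Console 4.0, per the submitters' processing notes. The summary, background and normalization methods are not given in the sources used here. Array medians ran from 4.91 to 5.00, and 35 to 41 features per array were at or above 19. Values were used as deposited, with no further normalization.

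Gene symbols came from the platform annotation (19572 features with 1 symbol, 2634 with none). Where a symbol was repeated (55 symbols), the brightest feature on average was taken. Of 311 genes in lists written from general knowledge, with earlier results of these data known, 282 were measured (169 of 186 in the 7 pathway lists).

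The limma package (3.58.1, R 4.3.3) was fitted with 1 coefficient per group over all 6 arrays (3 residual and 4.13 prior degrees of freedom), two-sided moderated tests and Benjamini-Hochberg adjustment over 22206 features. The code was tested on simulated data. Alternatives were an intensity trend or robust prior, the 2 compared groups alone, a replicate block, quantile normalization, median centring, leaving out features with a mean under 3.65 (the 30th percentile), averaging features of a symbol, and leaving out each array. Deviations of same-numbered arrays from their group means correlated at 0.120 to 0.136 across features in the 3 pairs of groups. The labels do not say that a number marks anything shared. Whether same-numbered arrays were paired is not known, so counts are also given with the block. Each group's hearts are called independent replicates in the series design.

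The 8 genes and the lists were chosen with earlier results of these data known. Named genes are the 8 genes, list genes marked for their role, list genes called in limma, and the 3 nearest genes by Pearson's r. Mef2c, Gata4, Tbx5 and Hand2 are given by name only. Likeness and motif counts carry no test.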

Additional observations from a re-analysis of the deposited data

How the results depend on the processing

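The arrays, 2 a group, limit all of these values. In limma, features called between TTg and Ctrl at 3 months went from 1 to 2 with these 2 groups alone, and ranged from 0 to 2 with 1 array left out. Between Ctrl at 3 and 2 months the count went from 1 to 0 with an intensity trend, with quantile normalization and without dim features, and ranged from 0 to 6 with 1 array left out. Between TTg and Ctrl at 2 months it went from 0 to 1 with a robust prior and ranged from 0 to 22 (without control replicate 2 at 2 months). Each such fit assumes that a group's single remaining array varies as the other groups do. With the replicate block, 11 features were called between TTg and Ctrl at 3 months and 5 between TTg and Ctrl at 2 months. It left the count between Ctrl at 3 and 2 months at 1. The number of called pathway genes was 0 under every alternative that was run. With 1 array left out, the median of the 8 genes ranged from −3.05 to −1.65 between TTg and Ctrl at 3 months and from 1.12 to 2.83 between Ctrl at 3 and 2 months. Of 96 differences of single members recomputed without an array of a compared group, 76 moved by less than the spread between replicates and 20 by more. That spread comes from the same pairs of arrays, so most of these differences could not have moved by more. The counts are therefore no measure of stability. The count of members above the rest on both control arrays at 3 months, 4, was 5 without control replicate 2 at 2 months, an alternative chosen after seeing the data.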
